A study of Mus musculus with 8 samples.

Results

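The 50 genes described here had a lower RNA level in cardiac precursors than in the stages on either side of them, mesoderm and cardiomyocytes. They were chosen from 13540 genes by 1 rule: the level in cardiac precursors, as log2(RPKM + 1), lay at least 1 (2-fold on that scale) below the level in mesoderm and at least 1 below the level in cardiomyocytes. RPKM counts reads per kilobase of a gene relative to sequencing depth, and the added 1 (a pseudocount) makes folds of low genes look smaller than they are. The values at these 3 stages therefore chose the genes and are given as a description. The rule said nothing about embryonic stem cells. A reading of these genes as low in cardiac precursors alone held for part of them. Cardiac precursors were the lowest of the 4 stages for 33 genes (66.0%, against 10.7% of all genes). Stem cells were the lowest for the other 17 (34.0%, against 32.5%). Only 13 genes were also at least 2-fold lower in cardiac precursors than in stem cells (26.0%, against 13.9%). The rule had already placed cardiac precursors below mesoderm and cardiomyocytes in all 50 genes. The shares of all genes are therefore not a like background, and these counts are a description.

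The RNA came from cultures of mouse embryonic stem cells (strain 129/Ola) led stepwise towards heart muscle. Cultures were taken on day 0 as stem cells (ESC), on day 4 as mesoderm (MES), on day 5.3 as cardiac precursors (CP) and on day 10 as cardiomyocytes (CM), and 8 libraries were made, 2 at each stage as biological duplicates. Cells formed floating aggregates (embryoid bodies) without serum, were taken apart, formed aggregates again in BMP4, Activin A and VEGF, and finally grew on a plate in FGF10, basic FGF and VEGF. The labels name no transgene or cell sorting, and each stage is a whole culture of 1 ES cell strain. The deposited table gives 1 value per stage, so no SD, p-value or replicate check can be attached to any difference here. Whether that value rests on both libraries of a stage cannot be told from the table.

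In bulk cultures, fewer cells of a type and less RNA per cell cannot be told apart. The labelled cell types were checked against summed levels of marker genes. Over the stages ESC, MES, CP and CM, 7 stem cell markers summed to 1746, 94.4, 14.5 and 9.41 RPKM. The 8 cardiomyocyte markers summed to 11.5, 10.1, 1101 and 8373 RPKM. The 10 endothelial markers summed to 22.8, 65.6, 361 and 132 RPKM and 9 blood markers to 2.84, 4.30, 262 and 11.6 RPKM, so both were highest in the stage at which the 50 genes were low. Of these, CP exceeded MES at least 2-fold for 8 of 10 endothelial and 8 of 9 blood markers, and the blood marker Hba-x was at 0 in MES and ESC. The 9 markers of paraxial and presomitic mesoderm summed to 11.5, 186, 29.3 and 10.2 RPKM. No marker of these or of 7 further cell type lists was among the 50 genes, and the part of the cell mix in their levels was not tested.

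Of all genes, 529 (3.91%) were at least 2-fold lower in CP than in MES and 1524 (11.3%) at least 2-fold higher in CM than in CP. Both held for 50 genes (0.369%), which is 9.45% of the 529 and 3.28% of the 1524. For comparison, CP was at least 2-fold higher for 318 genes than both neighbouring stages, and 140 of the 529 were at least 2-fold lower once more in CM. The smaller of the 2 differences was 1.37 at the median of the 50 genes on the log2 scale, and at most 2.45. In 5 genes it was at least 2, among them Cthrc1, Apln, Rspo3 and Fbln2. The genes nearest the threshold inside it were 6430527G18Rik (1.033), Endog (1.032), Slc29a2 (1.023), mt-Ta (1.018) and Slc19a2 (1.016). The nearest outside it were Lrp8 (0.995), Htra1 (0.983), Shb (0.981), Arhgef5 (0.972) and Morc4 (0.972).

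**Figure D1:**
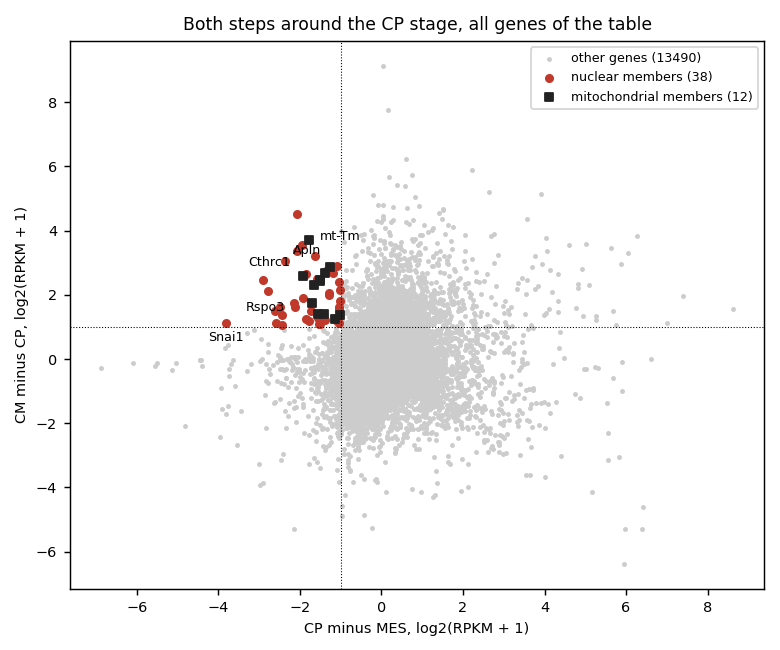
Difference between CP and MES (x axis) against the difference between CM and CP (y axis), both in log2(RPKM + 1), for all 13540 genes. The 38 nuclear (red circles) and 12 mitochondrial (black squares) genes of the set fill the upper left corner cut off by the dotted lines at 1 log2 unit, with Snai1 farthest left at -3.81 on the x axis.

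The set mixed 12 RNAs made in the mitochondrion with 38 protein-coding nuclear genes. Both genomes are needed to build the respiratory chain. The mitochondrial genome is copied into long transcripts from which transfer RNAs (tRNAs) are cut out, and these tRNAs punctuate the transcripts between the ribosomal and protein-coding stretches. In the developing heart, mesoderm cells leave the epithelial state, meet WNT, FGF and BMP signals, and become precursors that later build contractile filaments and turn to mitochondria for most of their energy. The nuclear genes of the set fell into secreted signals and their modifiers (10), transcription factors (5), metabolic enzymes (6), receptors, transporters and surface proteins (8), and cytoskeletal or signalling proteins (6). The remaining 3 genes were Lancl3, Tceal6 and 6430527G18Rik (Irf2bpl in GENCODE M21), whose roles are not described.

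**Figure D2:**
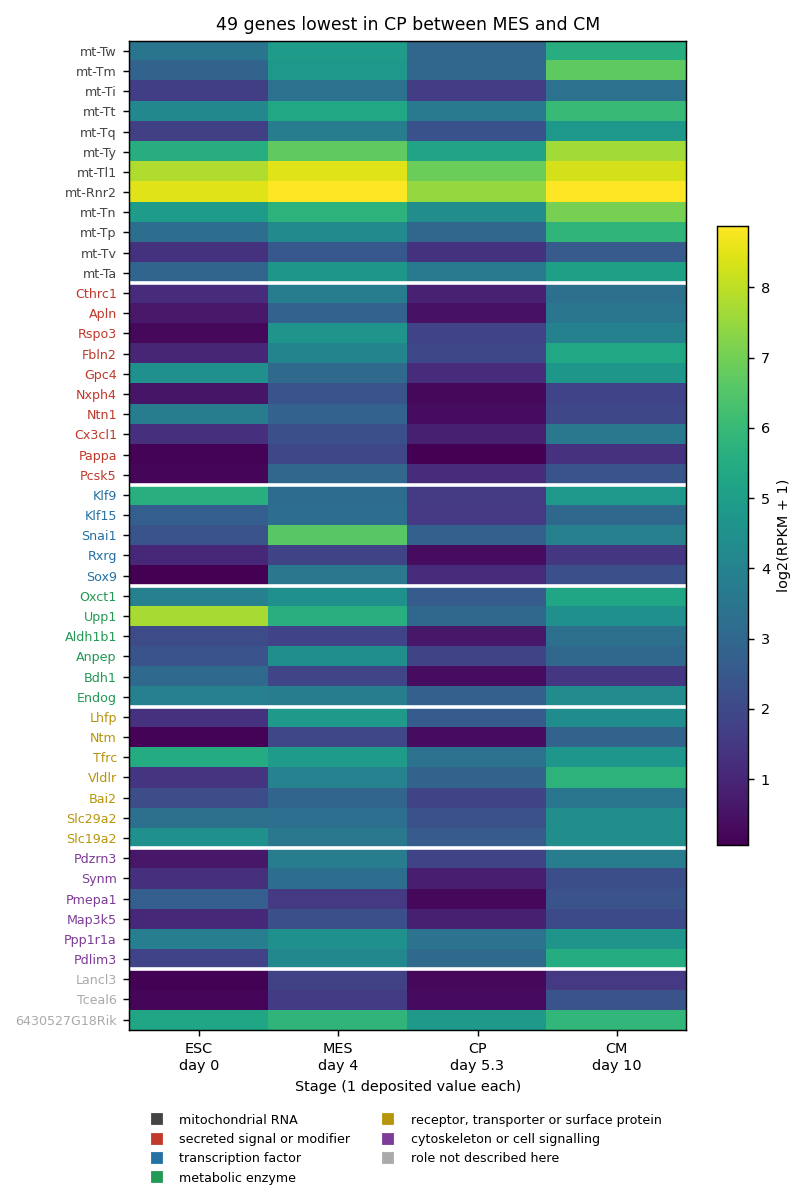
Level of 49 of the 50 genes (1 line each, grouped by role) at the 4 stages, as log2(RPKM + 1) on the colour scale. The CP column is darker than the MES and CM columns in every line, while the ESC column ranges from 0.0482 RPKM (Sox9) to 347 RPKM (mt-Rnr2).

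The mitochondrial group held 11 tRNAs and mt-Rnr2, the RNA of the large subunit of the mitochondrial ribosome. The largest dip among them was that of mt-Tw, the tRNA for tryptophan. It stood at 10.2 RPKM in ESC, 29.1 in MES, 6.89 in CP, then 46.1 in CM. The methionine tRNA mt-Tm reached 6.35, 26.2, 6.94 and 103 RPKM at the same 4 stages. In both genes the CP level was within 2-fold of the ESC level, and CM was the highest stage.

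Genomic sequences of 5 of the tRNAs are shown here because they have the largest dips of the group or sit beside mt-Rnr2. A large dip is not always a well counted one. The CP levels of mt-Tw, mt-Tm, mt-Ti, mt-Tt and mt-Tl1 rested on 29, 31, 9, 52 and 567 reads. The anticodon, which pairs with the codon, is in capitals. It was found as the triplet expected for the amino acid in the middle of a 7-base loop closed by a 5-base stem, at the place with the most stem pairs (at least 3) in each of the 11 tRNAs. The sequences run 5′ to 3′ on the coding strand and come from chromosome M of GRCm38 with GENCODE M21 annotation.
mt-Tw: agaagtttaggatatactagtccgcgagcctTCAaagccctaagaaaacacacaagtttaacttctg
mt-Tm: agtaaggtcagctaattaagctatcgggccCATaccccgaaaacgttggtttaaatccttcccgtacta
mt-Ti: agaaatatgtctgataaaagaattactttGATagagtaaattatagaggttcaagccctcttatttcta
mt-Tt: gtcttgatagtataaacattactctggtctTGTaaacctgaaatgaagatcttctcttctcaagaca
mt-Tl1: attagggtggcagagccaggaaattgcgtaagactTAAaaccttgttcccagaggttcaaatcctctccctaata
The TCA of mt-Tw reads the codon UGA, a stop in nuclear genes and a tryptophan codon in mammalian mitochondria. The CAT of mt-Tm reads the start codon. These genes lie on the plus strand at chrM:4950-5016 (mt-Tw), chrM:3845-3913 (mt-Tm), chrM:3706-3774 (mt-Ti), chrM:15289-15355 (mt-Tt) and chrM:2676-2750 (mt-Tl1).

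The other tRNAs of the set showed the same order of stages around CP. For isoleucine, mt-Ti had 2.28, 9.33, 2.17 and 9.53 RPKM over ESC, MES, CP and CM. For threonine, mt-Tt had 17.0, 39.5, 12.0 and 63.1 RPKM. The glutamine tRNA mt-Tq had 2.34, 12.8, 3.86 and 25.9 RPKM. The difference between MES and CM varied, from near none in mt-Ti to a CM level well above MES in mt-Tt and mt-Tq. For tyrosine, mt-Ty had 46.2, 104, 35.9 and 198 RPKM. For asparagine, mt-Tn had 29.7, 53.6, 19.8 and 132 RPKM. For proline, mt-Tp had 8.52, 17.8, 6.91 and 56.3 RPKM. In these 3 genes CP was the lowest of the stages and CM the highest. Alanine's mt-Ta, near the threshold, had 6.73, 25.5, 12.1 and 32.9 RPKM, and valine's mt-Tv had 1.54, 4.68, 1.57 and 5.07 RPKM. The value of mt-Tv rested on 7 reads in CP, and the 95% counting interval of its CP level over its MES level ran between 0.120 and 0.824.

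The most abundant RNAs of the set were mt-Rnr2, with 347, 468, 176 and 465 RPKM over ESC, MES, CP and CM, and its neighbour mt-Tl1, a leucine tRNA, with 223, 347, 117 and 312 RPKM. In both, MES and CM lay at nearly the same level. All 12 mitochondrial members were within 2-fold of their ESC level in CP, on the log2(RPKM + 1) scale. Their median level was 9.36 RPKM in ESC, 27.6 in MES, 9.46 in CP, then 59.7 in CM.

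The members were not spread evenly over the mitochondrial genes of the table. The table held 25 of the 37 annotated mitochondrial genes, among them 16 of 22 tRNAs and 7 of 13 protein-coding genes. It held no gene between mt-Co1 and mt-Nd4, at places 16 and 28 in genome order. That stretch was therefore not seen, and the reason for its absence is not known. Of the 16 tRNAs in the table, 11 met the rule, and all 16 were lower in CP than in MES and higher in CM than in CP by some amount. The median difference of the 16 was -1.32 for CP minus MES and 2.01 for CM minus CP. The 5 tRNAs outside the rule had a smaller difference of 0.95 (mt-Th), 0.93 (mt-Tc), 0.89 (mt-Tl2), 0.62 (mt-Ts2) and 0.49 (mt-Te). None of the 7 protein-coding genes met it: their differences ranged between -0.89 and -0.13 for CP minus MES and between -0.13 and 0.90 for CM minus CP, with medians of -0.48 and 0.54. The second ribosomal RNA, mt-Rnr1, had 68.8, 70.6, 50.4 and 90.9 RPKM over ESC, MES, CP and CM, differences of -0.48 (CP minus MES) and 0.84 (CM minus CP).

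**Figure D3:**
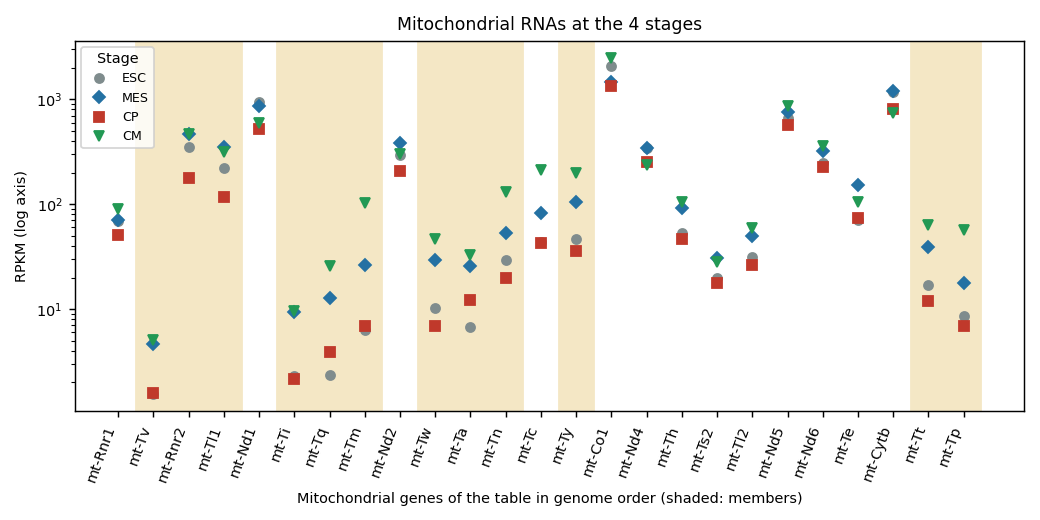
RPKM on a log axis at the 4 stages (grey ESC, blue MES, red CP, green CM) for the 25 mitochondrial genes of the table, in genome order with the 12 genes of the set shaded. Red squares are below the blue diamonds in all 25 genes, and the gaps are wider among the shaded tRNAs than among the protein-coding genes such as mt-Co1 and mt-Cytb.

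Among the mitochondrial genes of the table, taken in genome order, the members came in runs. The first was mt-Tv, mt-Rnr2 and mt-Tl1, the second mt-Ti, mt-Tq and mt-Tm, the third mt-Tw, mt-Ta and mt-Tn followed, past mt-Tc, by mt-Ty, and the last mt-Tt and mt-Tp. The first run lies on the plus strand. In the others mt-Tq, mt-Ta, mt-Tn, mt-Ty and mt-Tp lie on the minus strand and the rest on the plus strand. The libraries were made from poly(A) RNA and kept double-stranded DNA of 200 to 400 bp, longer than any of these tRNA genes (67 to 75 bases). Whether their reads came from mature tRNAs or from longer transcripts that still held them cannot be told apart, and strand was not recorded. Among 19 nuclear genes for mitochondrial transcription and RNA processing in the table, a list chosen after the members were known, none was 2-fold lower in CP than in MES (median -0.33) and none 2-fold higher in CM than in CP (median -0.24). One of them, Elac2, which cuts the tRNA 3′ end, had 34.2, 20.7, 13.4 and 6.89 RPKM at the 4 stages. Trmt10c, listed in the table as Rg9mtd1 and part of the enzyme for the 5′ end, had 12.3, 9.93, 6.56 and 5.12 RPKM. Both were lower at each later stage. Others of the list were lower in CP than in MES and CM, by less than 2-fold. Among these were Hsd17b10 (28.2, 47.3, 43.3 and 50.9 RPKM) and Supv3l1 (28.9, 19.6, 11.3 and 13.2 RPKM). Any part of these genes in the tRNA levels was not tested.

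The 10 secreted signals and modifiers held 4 of the 5 largest dips. Cthrc1, a secreted collagen-repeat glycoprotein, stood at 1.26 RPKM in ESC, 12.8 in MES, 0.834 in CP, then 9.02 in CM. Apln, which encodes the peptide apelin, stood at 0.599, 6.22, 0.412 and 10.6 RPKM. Rspo3, an R-spondin that raises WNT signalling, stood at 0.209, 23.6, 2.56 and 14.3 RPKM. All 3 were high in MES and in CM and lower in ESC than in either. The CP level was 0.0662 of the MES level for Apln (95% counting interval 0.0524 to 0.0827) and 0.108 for Rspo3 (0.0974 to 0.120). Fbln2, a fibulin of the extracellular matrix, had 0.996, 15.4, 2.91 and 39.3 RPKM over ESC, MES, CP and CM, and its CM level was the highest of the secreted group.

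The partners of these ligands followed other courses. The apelin receptor Aplnr, a marker of early mesoderm, had 0.0788, 84.1, 42.9 and 0.466 RPKM at the 4 stages, so in CM the ligand was at its highest level while the receptor was far below its levels in MES and CP. Of the R-spondin receptors, Lgr4 had 16.4, 6.42, 4.02 and 9.41 RPKM, and Lgr5 had 0.0346, 3.05, 0.0588 and 0.0181 RPKM. Another R-spondin, Rspo1, had 2.29, 2.55, 0.358 and 0.0583 RPKM. Lgr4 was thus lowest in CP as well, by less than the rule asks. Lgr5 and Rspo1 were at least 2-fold lower in CP than in MES, and neither was higher in CM than in CP.

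Gpc4, a glypican (a heparan sulfate carrier on the cell surface that binds growth factors), had 21.5 RPKM in ESC, 7.60 in MES, 1.25 in CP, then 25.4 in CM. Its level in CP was also far below ESC, at 0.0579 of it (95% counting interval 0.0503 to 0.0662). Gpc3, a related glypican, had 18.5, 288, 369 and 263 RPKM and was highest in CP. Gpc1 had 14.3, 55.2, 19.4 and 22.4 RPKM and was 2-fold lower in CP than in MES. Ntn1, the guidance cue netrin, had 12.5, 6.19, 0.294 and 2.94 RPKM, and its highest level was in ESC. Its receptor Unc5b had 18.8, 28.2, 55.3 and 121 RPKM, higher at each later stage. Nxph4, of the neurexophilins (ligands of neurexins), had 0.483, 4.10, 0.184 and 2.62 RPKM.

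Cx3cl1, a membrane-bound chemokine (fractalkine), had 1.45, 3.66, 0.808 and 11.1 RPKM at the 4 stages. The other secreted members were proteases. Pappa cleaves binding proteins of insulin-like growth factors and had 0.113, 2.86, 0.0722 and 1.52 RPKM. Its CP level was 0.0253 of that in MES (95% counting interval 0.0188 to 0.0333), the lowest such ratio of the 50 genes without the pseudocount. Its substrates Igfbp4 (14.5, 115, 309 and 92.5 RPKM) and Igfbp5 (1.13, 8.20, 47.4 and 252 RPKM) were higher in CP than in MES, while Igfbp2 (226, 42.7, 18.8 and 24.6 RPKM) was lowest in CP. Pcsk5, a convertase that activates precursor proteins, had 0.128, 6.83, 1.28 and 4.14 RPKM, while the related Furin had 4.45, 7.87, 25.1 and 64.7 RPKM.

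Of the 5 transcription factors, Klf9 and Klf15 are Krüppel-like zinc finger proteins that respond to glucocorticoids, and Klf15 is known in the heart for its part in metabolism. Klf9 had 48.8 RPKM in ESC, 8.16 in MES, 1.95 in CP, then 26.0 in CM. Klf15 had 5.42, 8.58, 1.88 and 7.20 RPKM. Both were at least 2-fold lower in CP than in ESC as well as in the neighbouring stages. Of 7 other genes of glucocorticoid response in the table, the receptor gene Nr3c1 among them, 1 was 2-fold lower in CP than in MES. Per1 and Nr3c1 were the 2 that were 2-fold higher in CM than in CP, and none met both. Fkbp5 had 23.3, 12.9, 7.90 and 3.12 RPKM, and Per1 had 6.86, 5.69, 6.28 and 25.6 RPKM. The glucocorticoid receptor gene Nr3c1 had 1.60, 1.49, 0.857 and 5.27 RPKM and was lowest in CP.

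The promoters of these related genes are shown, 250 bases before to 50 bases after the start, as RefSeq gives them on GRCm38.p6: chr19:23140976-23141275 for Klf9 and chr6:90462326-90462625 for Klf15, both on the plus strand. Capitals mark letters that match 1 of 9 short motifs on either strand.
Klf9: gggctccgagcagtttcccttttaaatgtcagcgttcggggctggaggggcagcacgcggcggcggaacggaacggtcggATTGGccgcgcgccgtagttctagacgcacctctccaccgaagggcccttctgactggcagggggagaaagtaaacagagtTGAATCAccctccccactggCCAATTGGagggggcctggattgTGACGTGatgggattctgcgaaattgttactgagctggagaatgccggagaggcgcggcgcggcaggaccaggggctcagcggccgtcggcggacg
Klf15: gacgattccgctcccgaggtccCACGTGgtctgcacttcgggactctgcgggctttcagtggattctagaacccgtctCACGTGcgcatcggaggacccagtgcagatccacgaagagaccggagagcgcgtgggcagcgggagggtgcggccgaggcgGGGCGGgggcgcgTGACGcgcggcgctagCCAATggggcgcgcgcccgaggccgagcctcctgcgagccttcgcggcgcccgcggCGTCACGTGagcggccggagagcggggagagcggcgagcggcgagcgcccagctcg
In Klf9 the capitals are 3 CCAAT boxes (2 of them overlapping in CCAATTGG), TGANTCA, and TGACG overlapping ACGTG. In Klf15 they are CACGTG at 3 places, each holding ACGTG on both strands, 1 GGGCGG, 1 CCAAT and 2 copies of TGACG, 1 of which overlaps the last CACGTG. Promoters were found by symbol for 29 of the 38 nuclear members and for 10216 genes of the table. CCAAT was in 41.4% of the members' promoters and 38.6% of all, GGGCGG in 69.0% and 65.8%, TGACG in 27.6% and 31.6%. CACGTG was in 10.3% and 10.5%, ACGTG in 31.0% and 26.0%, TATAAA in 3.45% and 6.88%, and TGANTCA in 6.90% and 4.40%. GGAATG was in 20.7% and 11.9%, which is 6 member promoters (Pdlim3, Ntm, Upp1, Oxct1, Lancl3 and Gpc4), and AGATAA in 0% and 6.07%. The median GC content was 64.7% in the members' promoters and 61.3% in all. With 29 promoters, 1 more or less moves a share by over 3 percentage points, and a match of letters is not a binding site.

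Snai1, which represses E-cadherin when mesoderm leaves the epithelium, had 3.99 RPKM in ESC, 94.1 in MES, 5.80 in CP, then 13.8 in CM. It had the widest step between CP and MES of all 50 genes (-3.81), and its CM level stayed far below MES. Its relative Snai2 had 0.359, 1.18, 10.3 and 4.33 RPKM and was highest in CP. Sox9, a factor of cartilage and heart valves, had 0.0482, 10.9, 1.21 and 3.64 RPKM, with 15 reads in ESC. Rxrg, a retinoid X receptor, had 1.13, 2.69, 0.296 and 1.77 RPKM, while Rxrb had 25.3, 28.3, 18.9 and 30.6 RPKM and Rxra 4.93, 15.6, 17.8 and 9.09 RPKM.

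Of the 6 metabolic enzymes, 5 were at least 2-fold lower in CP than in ESC, against 13.9% of all genes; the CP values here are those the rule chose to be low. Oxct1, the enzyme that lets cells outside the liver use ketone bodies, had 13.8 RPKM in ESC, 21.4 in MES, 5.24 in CP, then 37.9 in CM. Bdh1, which acts a step before it, had 7.45, 2.73, 0.297 and 1.77 RPKM. Both were lowest in CP, but Oxct1 was highest in CM and Bdh1 in ESC. Of other genes of ketone use, the mitochondrial thiolase Acat1 had 6.12, 7.90, 9.32 and 48.6 RPKM. The transporter Slc16a1 had 31.0, 96.4, 35.1 and 27.7 RPKM. Neither had the course of Oxct1.

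Upp1, which splits uridine for reuse, had the highest ESC level of the nuclear members: 209.6 RPKM in ESC, 48.6 in MES, 7.07 in CP, then 21.7 in CM. The nucleoside transporter Slc29a2 had 9.02, 8.77, 3.81 and 20.2 RPKM. The uridine kinase Uck2 had 123, 109, 53.3 and 66.1 RPKM, so it was also lowest in CP, with a CM level only slightly higher. Of 9 other genes of nucleoside transport and salvage, Uck2 was the only 1 that was 2-fold lower in CP than in MES. None of the 9 was 2-fold higher in CM than in CP. The median CP minus MES difference of the 9 was -0.16, and the related transporter Slc29a1 had 105, 18.8, 16.7 and 13.9 RPKM. Aldh1b1, a mitochondrial aldehyde dehydrogenase, had 3.26, 2.61, 0.571 and 8.99 RPKM. Endog, a mitochondrial nuclease, had 14.0, 13.0, 5.84 and 19.1 RPKM. Anpep, a surface aminopeptidase, had 4.00, 20.8, 2.65 and 6.98 RPKM and was the enzyme whose CP level was within 2-fold of ESC.

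Among transporters and receptors, Tfrc, the transferrin receptor that brings iron into cells, had 44.1, 28.7, 9.19 and 24.8 RPKM. The iron store Fth1 had 328, 451, 343 and 434 RPKM. Slc19a2, a thiamine transporter, had 21.3, 11.2, 5.02 and 20.3 RPKM and was back near its ESC level in CM.

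Vldlr, a lipoprotein and reelin receptor, had 1.69 RPKM in ESC, 14.6 in MES, 6.29 in CP, then 53.8 in CM. Lrp8, the other receptor of that pathway, lay just outside the rule with 1.16, 5.00, 2.01 and 5.91 RPKM. Both receptors were lowest in ESC and higher in CM than in MES. Lhfp, a membrane protein, had 1.52, 26.5, 5.20 and 19.5 RPKM. Ntm, an adhesion molecule of neurons, had 0.107, 2.85, 0.290 and 6.26 RPKM. Bai2, an adhesion receptor now called Adgrb2, had 3.47, 6.65, 2.70 and 10.4 RPKM. In the 4 members Vldlr, Lhfp, Ntm and Bai2, ESC was below both MES and CM.

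The cytoskeletal and signalling proteins included 2 of muscle. Pdlim3, which binds actinin at the Z-disc, had 2.55, 16.9, 7.66 and 45.1 RPKM over ESC, MES, CP and CM, and Synm, the intermediate filament protein synemin, had 1.43, 8.48, 0.742 and 3.53 RPKM. Pdzrn3, a ubiquitin ligase, had 0.565, 12.9, 2.69 and 12.9 RPKM, the same in CM as in MES to 3 digits. Ppp1r1a, an inhibitor of protein phosphatase, had 13.2, 21.6, 9.67 and 23.4 RPKM. In Pdzrn3 and Ppp1r1a, then, CM and MES were nearly level. Pmepa1, a feedback inhibitor of TGF-beta signalling, had 5.51, 1.92, 0.198 and 3.97 RPKM, and Map3k5, a stress-activated kinase, had 1.12, 3.69, 0.791 and 3.13 RPKM. Of the 3 genes with no role given, Lancl3 had 0.0840, 2.49, 0.191 and 1.91 RPKM. Tceal6 had 0.143, 2.06, 0.263 and 4.02 RPKM, and 56.6% of its 32-base words occur in transcripts of other genes, so its level is uncertain. 6430527G18Rik had 36.5, 55.3, 26.5 and 59.3 RPKM.

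The level in stem cells divided the set. This comparison shares the CP values with the rule. In CP, 13 genes (26.0%) were at least 2-fold lower than in ESC, against 13.9% of all genes. They were Gpc4, Oxct1, Klf9, Ntn1, Klf15, Upp1, Tfrc, Pmepa1, Aldh1b1, Bdh1, Endog, Slc29a2 and Slc19a2, none of them mitochondrially encoded. For a further 7 genes (14.0%) CP exceeded ESC at least 2-fold, against 17.1% of all genes: Rspo3, Pdzrn3, Lhfp, Pcsk5, Vldlr, Sox9 and Pdlim3. The remaining 30 were within 2-fold. The median CP minus ESC difference was -0.34 over the set and 0.05 over all genes.

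**Figure D4:**
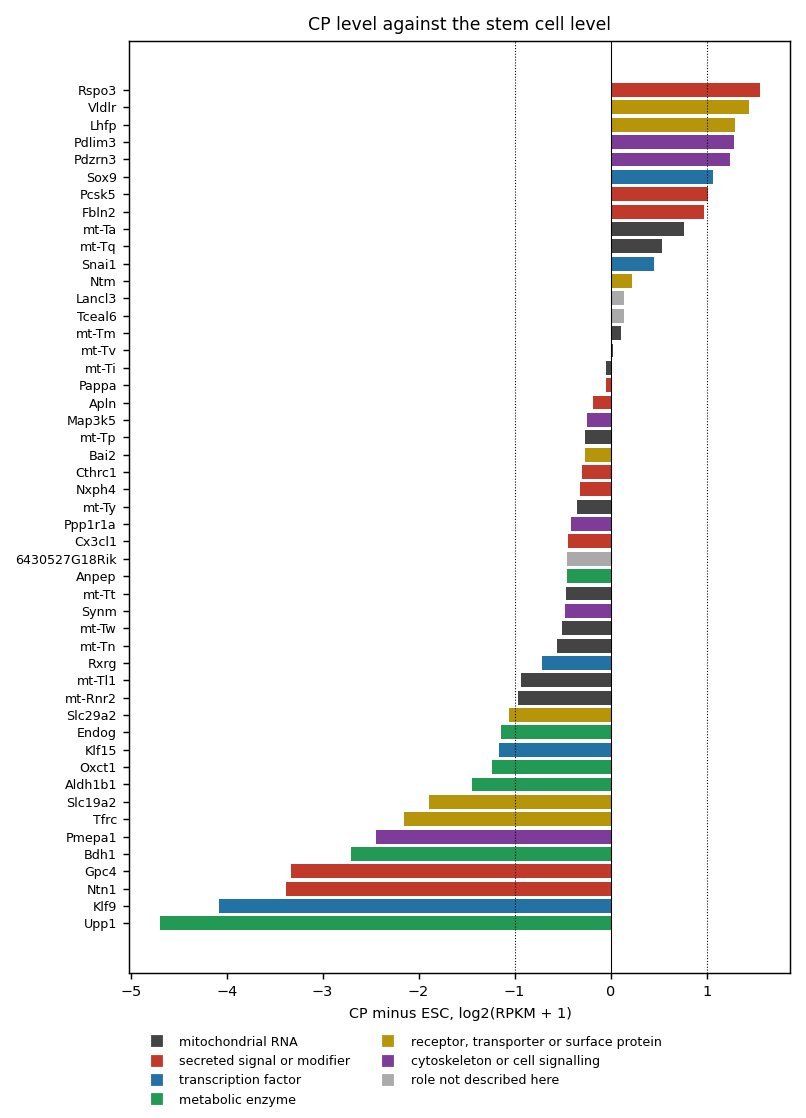
CP minus ESC in log2(RPKM + 1) for 49 of the 50 genes, coloured by role, with dotted lines at a 2-fold difference. Bars run between -4.70 (Upp1) and 1.56 (Rspo3), 13 pass the lower line and 7 the upper, and the 12 mitochondrial genes are all between the lines.

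Against stem cells the 2 high stages stood out. MES exceeded ESC at least 2-fold in 28 genes (56.0%), against 11.1% of all genes, and 5 (10.0%) at least 2-fold lower, against 11.2%. CM exceeded ESC at least 2-fold in 32 genes (64.0%), against 22.2% of all genes, and 3 were at least 2-fold lower, against 23.4%. A rule that asks for high MES and CM levels favours such counts, so they describe the set only. ESC was the highest stage for 7 genes (14.0%, against 30.5% of all genes): Klf9, Ntn1, Upp1, Tfrc, Pmepa1, Bdh1 and Slc19a2. In 12 genes (24.0%) the ESC level was under 1 RPKM, against 15.7% of all genes, and in 16 genes it was 10 RPKM or more, against 37.8% of all genes.

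Between CM and MES the median difference was 0.23 over the set, against -0.12 over all genes. It was 0.05 over the nuclear and 0.65 over the mitochondrial members, and 0.21 to 0.61 under the other pseudocounts, filters and scalings. At least 2-fold higher in CM than in MES were 12 genes (24.0%), against 17.6% of all genes, and at least 2-fold lower were 5 (10.0%), against 19.6%. Those 5 were Upp1, Synm, Anpep, Snai1 and Sox9. CM was the highest stage for 27 genes (54.0%, against 29.8% of all genes) and MES for 16, against 22.8% of all genes. The rule bars CP from being the highest stage of a member, which favours both counts.

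In CP, where the rule chose low levels, 16 of the 50 genes were under 1 RPKM. At all stages 15 stayed under 10 RPKM, while 27 reached 20 RPKM somewhere. The shares of all genes were not counted for these limits, so they do not compare the set with other genes. Median levels over ESC, MES, CP and CM were 3.73, 12.0, 2.67 and 16.7 RPKM for the set. For all genes they were 6.07, 6.73, 7.11 and 6.50 RPKM. Reads behind the values were recovered for all 50: in CP they numbered between 7 (mt-Tv) and 18044 (mt-Rnr2), with a median of 264.5, and 10 genes had under 50 reads. The 95% counting intervals of both ratios (CP over MES, CM over CP) lay away from 1 in all 50 genes, and in 45 genes both lay wholly beyond 2-fold. The others were Endog, mt-Tv, mt-Tq, mt-Ta and mt-Tp, so most of them were mitochondrial tRNAs. Their intervals of CP over MES reached up to 0.522, 0.824, 0.527, 0.662 and 0.600. The same values chose the genes, so the intervals describe the counting precision and are no test. These intervals cover counting error only, not the spread between cultures.

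**Figure D5:**
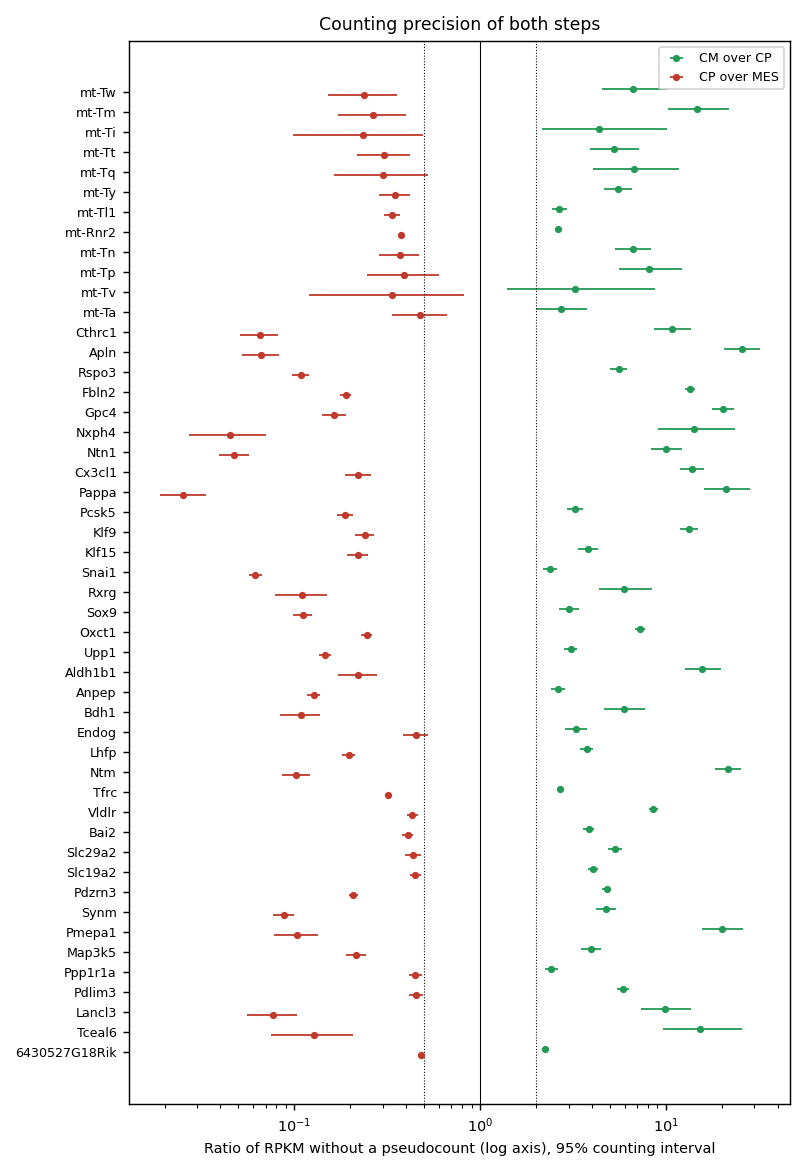
Ratio of CM to CP (green) and of CP to MES (red) for 49 of the 50 genes on a log axis, without a pseudocount, with 95% counting intervals from recovered reads as bars and dotted lines at 2-fold. Every interval drawn stays on its side of 1, and the widest belong to mt-Tv, with 7 reads in CP.

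Other pathways were counted on the same 2 steps, from lists chosen with earlier results known, beside 3.91% and 11.3% of all genes. Of 25 hypoxia genes in the table none was 2-fold lower in CP than in MES, and 20 were 2-fold higher in CM than in CP, with median differences of 0.49 and 1.80 (all genes -0.03 and -0.15). Of 10 WNT targets and feedback genes, 9 were 2-fold lower in CP than in MES and none 2-fold higher in CM than in CP, with medians of -2.07 and -0.51. Neither list had a gene among the 50. Matrix genes gave 1 and 15 of 18, immediate-early genes 0 and 12 of 20, and p53 targets 1 and 10 of 18, on the same counts. Retinoic acid and epicardial genes gave 2 and 0 of 14, cholesterol genes 1 and 0 of 21, interferon genes 2 and 0 of 14, and metallothionein and oxidative stress genes 0 and 3 of 13. Lists of ATF4 targets (3 and 5 of 20) and of adhesion genes (3 and 3 of 14) held 1 gene of the 50 each, Vldlr and Snai1. Housekeeping genes gave 0 and 1 of 11, and small nuclear, small nucleolar and histone RNAs 0 and 1 of 6, the 1 being the histone gene Hist1h1c.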

How the data were processed

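RNA was extracted with TRIzol, poly(A) RNA was selected, fragmented and amplified by 15 cycles of PCR, and libraries were run on an Illumina GAIIx, as the labels' protocols state. Per the submitters' processing notes, the aligner was Novoalign 2.07.00 and the genome was mm9. Not given in the sources used here are the counting tool, the gene models, the gene filter and how the paired libraries of each stage became 1 value. The values are RPKM as deposited by the authors, per the file headers, with 1 column per stage. Each of the 13540 genes reaches 1 RPKM at some stage, so genes below that everywhere were not analysed here.

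The rule was applied to log2(RPKM + 1). With no column per library, limma and every other test planned for separate libraries was not run, and differences, counts at 2-fold and medians describe the stage values. Depth was first estimated from mitochondrial tRNA genes, whose lengths (GENCODE M21) turn RPKM into whole reads at the true depth. At the best depths of this search, 11 of 16 such genes were whole within 0.01 reads at each stage. The depth was then refined on genes whose reads came near whole numbers, between 3220 (CM) and 3421 (MES) of them. In units of 1000000 reads the refined depth was 75.3 (ESC), 62.0 (MES), 64.8 (CP) and 88.5 (CM). For a 2 kb gene, 3 reads are worth 0.0199, 0.0242, 0.0232 and 0.0169 RPKM. For all 50 members a gene length of at most 1.2 times the M21 exon length gave whole reads at all stages (tolerance 0.012 reads plus 3e-07 of the count), against 4 with the ESC depth off by 0.1%. In 24 of them that length equals an M21 length, and in the others the shortest such length was taken, so reads may be too few by a common divisor. Intervals are exact 95% ones for Poisson counts and cover counting error only, since PCR copies were not marked. The recovery was tested on simulated data.

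M21 and the RefSeq promoters are on GRCm38, not the build of the files, and served for names, lengths and sequences. Overlapping genes cannot be told apart without strand. One gene of the 50 is counted but not reported by name here. The members, the lists and the rule for naming genes were chosen with earlier results of these data known, and partner genes were chosen after the members were known. By that rule any member may be named by role, values are due for the 15 largest dips, members at or over 20 RPKM and list members, and the 5 genes on each side of the threshold are given. Values of the remaining members were added beyond the rule. Alternatives were pseudocounts of 0.1 and 0.5, minimum differences of 0.8 and 2, filters at 3 and 5 RPKM, 3 other scalings and, added after the data were seen, a set without mitochondrial genes and counting intervals without a pseudocount. Python 3.11.15, pandas 2.3.3, numpy 2.4.6, scipy 1.17.1 and matplotlib 3.10.9 were used.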

Additional observations from a re-analysis of the deposited data

How the results depend on the processing

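The number of genes that meet the rule depends on its settings. It was 50 as reported, 150 with a pseudocount of 0.1, 91 with a pseudocount of 0.5, 103 with a minimum difference of 0.8, 5 with a minimum difference of 2 and 106 when each stage was brought to a sum of 1000000. It was 75 after quantile normalization, 46 with each stage centred on its median, 47 among genes reaching 3 RPKM, 34 among genes reaching 5 RPKM in both MES and CM, and 38 without mitochondrial genes. Of the 50 genes themselves, 42 stayed past the threshold under all 3 other scalings. Those that did not were 7 when centred on the median, 3 after quantile normalization and 2 when scaled to a sum. All of these kept a smaller difference of at least 0.95, and none changed direction. A smaller pseudocount can only widen both differences of a member, so all 50 were bound to pass at 0.1 and 0.5. With a minimum difference of 2, 5 of the 50 remained. The number of members at least 2-fold lower in CM than in MES was 5 as reported, 3 among genes reaching 5 RPKM in both MES and CM and 3 with each stage centred on its median. The median of all genes for CM minus CP was -0.15 as reported and -0.29 when scaled to a sum. Over the pseudocounts, filters and scalings, members at least 2-fold lower in CP than in ESC numbered 9 to 15, those at least 2-fold higher 5 to 9, and those at least 2-fold higher in CM than in MES 10 to 15. The median over members of CM minus MES was 0.23 as reported, 0.52 and 0.61 under the filters at 3 and 5 RPKM, 0.42 centred on the median, 0.39 after quantile normalization and 0.05 without mitochondrial genes. With no pseudocount, 45 had both counting intervals wholly beyond 2-fold.

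No paired analysis was possible because the table has 1 column per stage, with none per library; no replicate was left out for the same reason. Depth limits the low members most: 19 had under 100 reads in CP, and the spread between cultures is unknown for all 50.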
